A study of Mus musculus with 6 samples.

Results

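The miR-290 cluster precursor genes are Mir291b, Mir292, Mir293, Mir294 and Mir295, 5 of the 39017 genes in the count tables of mouse embryonic stem cells (mESCs). They were selected on their raw counts in the auxin-treated, untreated and wild-type libraries, which had been seen to be lower after auxin, so their values in these comparisons are a description without a test. The table held 2 more hairpins of the cluster, Mir290 (named Mir290a in newer annotations) and Mir291a, which the choice left out, and 648 further genes with a miRNA symbol.

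The cluster is transcribed by RNA polymerase II (Pol II) as 1 long primary transcript, from which the nuclear enzyme DROSHA and its partner DGCR8 cut hairpins that DICER1 then trims into mature miRNAs. Its miRNAs are among the most abundant of pluripotent mouse cells, and most of them share a seed, the short stretch near the 5′ end that pairs with target mRNAs. They are known for silencing inhibitors of the G1 to S transition, and the pluripotency factors OCT4, SOX2 and NANOG bind their promoter. Poly(A)-selected libraries do not capture mature miRNAs, so reads over a hairpin come from longer RNA that spans it.

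The hairpins lie on the plus strand of chromosome 7 (mm10, GENCODE vM21), in the order Mir290, Mir291a, Mir292, Mir291b, Mir293, Mir294 and Mir295. Mir292 (ENSMUSG00000078041) occupied chr7:3219189-3219270 with 82 bases, and Mir291b (ENSMUSG00000078032) occupied chr7:3219482-3219560 with 79 bases. After a gap of 782 bases, Mir293 (ENSMUSG00000078035) lay at chr7:3220343-3220422 with 80 bases. Mir294 (ENSMUSG00000077903) at chr7:3220641-3220724 had 84 bases, and Mir295 (ENSMUSG00000077886) at chr7:3220773-3220841 had 69 bases and began 48 bases after Mir294. From the start of Mir292 to the end of Mir295 the genes spanned 1653 bases. On the minus strand, all 5 lay within the last exon of Nlrp12, a sensor gene of innate immunity, which ran from 3218784 to 3222560.

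The mature sequences show what the precursors encode and how the members are related. They were copied from RefSeq (GRCm38.p6), where all 5 genes matched a hairpin and 9 mature miRNAs, and are written 5′ to 3′ with the seed, bases 2 to 8, in capitals. The set used held no entry for the 3p arm of Mir292, so the seed of that arm was not examined. The 3p arms of Mir291b, Mir294 and Mir295 carry AAGUGC at bases 2 to 7, the hexamer of the family:
miR-291b-3p: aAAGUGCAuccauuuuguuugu
miR-294-3p: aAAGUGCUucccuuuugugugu
miR-295-3p: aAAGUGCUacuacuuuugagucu
The 3p arm of Mir293 is offset and begins its seed within the same letters, and the 5p arms of Mir292 and Mir293 share the seed CUCAAAC:
miR-293-3p: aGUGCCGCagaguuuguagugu
miR-292a-5p: aCUCAAACugggggcucuuuug
miR-293-5p: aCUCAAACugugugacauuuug
The 5p arms of Mir294 and Mir295 differ from that seed in its last base, and that of Mir291b has a seed of its own among the members:
miR-294-5p: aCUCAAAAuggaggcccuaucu
miR-295-5p: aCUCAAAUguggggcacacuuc
miR-291b-5p: gAUCAAAGuggaggcccucucc
Of 1738 mature mouse miRNAs in the table, which lacked the 3p arm of Mir292 and may lack others, 8 (0.46%) had AAGUGC at bases 2 to 7. Among genes outside the cluster that this table gave with a full seed of a member, Mir302b and Mir302d had at most 1 count in any library. Mir350 had 0 in all 6, so none of these genes could be tested.

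PolyA RNA-Seq counts came from 6 libraries, 2 in each of 3 groups. The untreated group was the Pol II degron line, a clonal V6.5 mESC line in which both copies of RPB1, the largest Pol II subunit, carried a mini auxin-inducible degron and GFP at the C-terminus, with the plant F-box protein OsTIR1 induced from Rosa26. The auxin-treated group was the same line after 6 h with 500 μM indole-3-acetic acid, which sends the tagged protein to the proteasome. Both of these groups had been given 1 μg/ml doxycycline for 12 h to induce OsTIR1. The third group, without the tags, was wild-type V6.5, the line from which an OsTIR1 clone and then the tagged line were made. Whether it received doxycycline is not stated in the sources used here. Its extraction label names retinas. Cells were grown with LIF on irradiated mouse embryonic fibroblasts and, by the study's account, harvested after 2 passages of these feeders. The study's methods speak of biological replicates for its sequencing experiments in general, and the labels do not say whether the libraries of a group came from separate cultures, so the tests measure the spread between these samples.

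The libraries held 14094022 to 15358714 counts each. Polr2a mRNA, which encodes RPB1, had 6568 to 10663 counts, and since auxin acts on the protein its mRNA does not check the depletion. The 8 mESC markers, Oct4 (Pou5f1), Sox2 and Nanog among them, were all detected, with a summed level, in CPM (the counts of a gene per 1000000 of the library), of 4000 to 4570 in untreated, 3330 to 3590 in auxin-treated and 6870 to 6970 in wild-type cells. The 8 fibroblast markers summed to 169 to 172, 189 to 218 and 134 to 138 CPM in the same order, and Lum, one of them, was at 0 in the untreated and auxin-treated libraries. The 8 retinal markers summed to 1.41 to 3.29 CPM over all libraries, with the photoreceptor genes Crx and Rcvrn at 0 in each, so the RNA labelled as retinal lacked them.

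Counts over the 5 genes were highest in the untreated libraries, lowest in the auxin-treated libraries and between these in wild-type cells, summed over the genes. The sum was 715 and 496 counts in the untreated libraries, 277 and 242 after auxin, and 342 and 307 in wild-type cells. Scaled by the trimmed mean of M-values (TMM) over all 6 libraries, this was 42.0 ± 11.2 CPM in untreated, 16.5 ± 1.24 CPM in auxin-treated and 22.8 ± 1.89 CPM in wild-type cells (SD, n = 2 each). The ratio of these means was 0.393 for auxin-treated over untreated cells, 0.542 for wild-type over untreated cells and 0.725 for auxin-treated over wild-type cells. A CPM is a share of the RNA in a library, and in these bulk samples fewer cells of a type and less RNA per cell cannot be told apart.

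**Figure D1:**
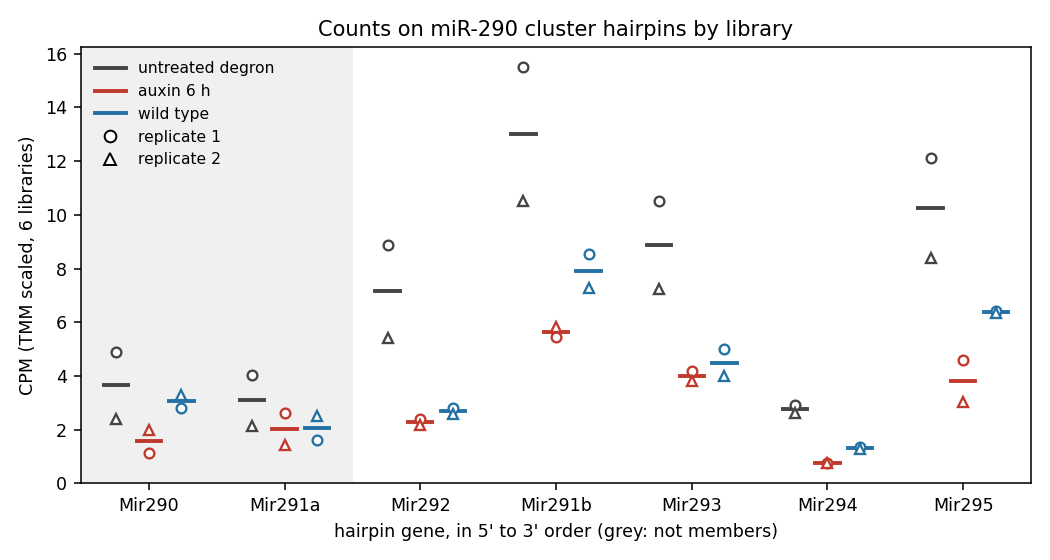
Each point is the TMM-scaled CPM of 1 library for 1 hairpin gene, in 5′ to 3′ order, with replicate 1 as a circle and replicate 2 as a triangle, and each bar is the mean of the 2 libraries of a group. For all 5 members both untreated libraries lie above both auxin-treated and both wild-type libraries, which the grey-shaded Mir290 and Mir291a do not show.

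Mir291b, which encodes a miRNA with the AAGUGC hexamer, had 222 and 152 counts in the untreated libraries, 87 and 90 after auxin, and 121 and 104 in wild-type cells. Its level was 13.0 ± 3.56, 5.63 ± 0.249 and 7.89 ± 0.895 CPM (SD, n = 2) in these groups. The groups did not overlap, and the wild-type libraries lay between those of the other groups. How many of all genes show this order was not counted, here or for Mir294 and Mir295 below.

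Mir294, which encodes one of the best known miRNAs of the cluster, had the fewest counts of the 5. It had 42 and 38 counts in untreated, 12 and 12 in auxin-treated, and 19 and 18 in wild-type libraries. These were 2.77 ± 0.224, 0.764 ± 0.0155 and 1.3 ± 0.0581 CPM (SD, n = 2), again without overlap between any of the groups. The exact 95% Poisson interval of 12 counts runs from 6.20 to 21.0, so the close agreement of the 2 auxin-treated libraries was narrower than counting error, which is all that such an interval covers.

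Mir295, whose 3p miRNA has the same seed as miR-294-3p, had 173 and 122 counts in untreated, 73 and 47 in auxin-treated, and 91 and 91 in wild-type libraries. Its level was 10.2 ± 2.60, 3.81 ± 1.09 and 6.38 ± 0.0419 CPM (SD, n = 2). It was the member with the widest gap between the auxin-treated libraries, the higher being 1.51 times the lower, and its groups did not overlap.

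Mir292, the first of the 5 on the transcript, had 127 and 79 counts in untreated, 38 and 34 in auxin-treated, and 40 and 37 in wild-type libraries. This came to 7.15 ± 2.42, 2.29 ± 0.134 and 2.70 ± 0.167 CPM (SD, n = 2). The wild-type libraries were much nearer to the auxin-treated than to the untreated ones.

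Mir293 had 151 and 105 counts in untreated, 67 and 59 in auxin-treated, and 71 and 57 in wild-type libraries. Its level was 8.88 ± 2.34, 4.01 ± 0.279 and 4.49 ± 0.724 CPM (SD, n = 2). It was the member whose auxin-treated and wild-type libraries overlapped, at 3.81 to 4.20 and 3.98 to 5.00 CPM.

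The untreated libraries stood apart from each other over the whole cluster. The first held more of every hairpin than the second, by a factor of 1.46 for the sum of the 5 and of 1.12 for Mir294 to 1.63 for Mir292 among them, and by 2.03 for Mir290 and 1.9 for Mir291a. For Mir291b the exact 95% Poisson intervals of the counts, 194 to 253 and 129 to 178, did not meet. The higher library was 1.11 times the lower for the summed auxin-treated level and 1.12 times for the wild-type level. All hairpin genes of the table together had 1463 and 1087 counts in the untreated libraries, against 1000 and 893 after auxin and 992 and 993 in wild-type cells.

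Per length, Mir291b and Mir295 were the highest of the 5 in untreated cells, with 164 ± 45.1 and 148 ± 37.7 CPM per kilobase (SD, n = 2). Mir293 followed with 111 ± 29.3, Mir292 with 87.1 ± 29.6 and Mir294 with 33.0 ± 2.67 CPM per kilobase. The order was the same in both untreated libraries, but the ranges of neighbours overlapped down to Mir292, and only Mir294 lay apart, at 31.1 and 34.9 against 66.3 and 108 for Mir292. Mir294 was the lowest member per length in all 6 libraries, and its 9.09 ± 0.184 CPM per kilobase after auxin was the lowest level of any member in any group. Mir290 and Mir291a, upstream of the 5, had 43.9 ± 21.1 and 37.7 ± 16.5 CPM per kilobase in untreated cells, in which their ranges overlapped.

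**Figure D2:**
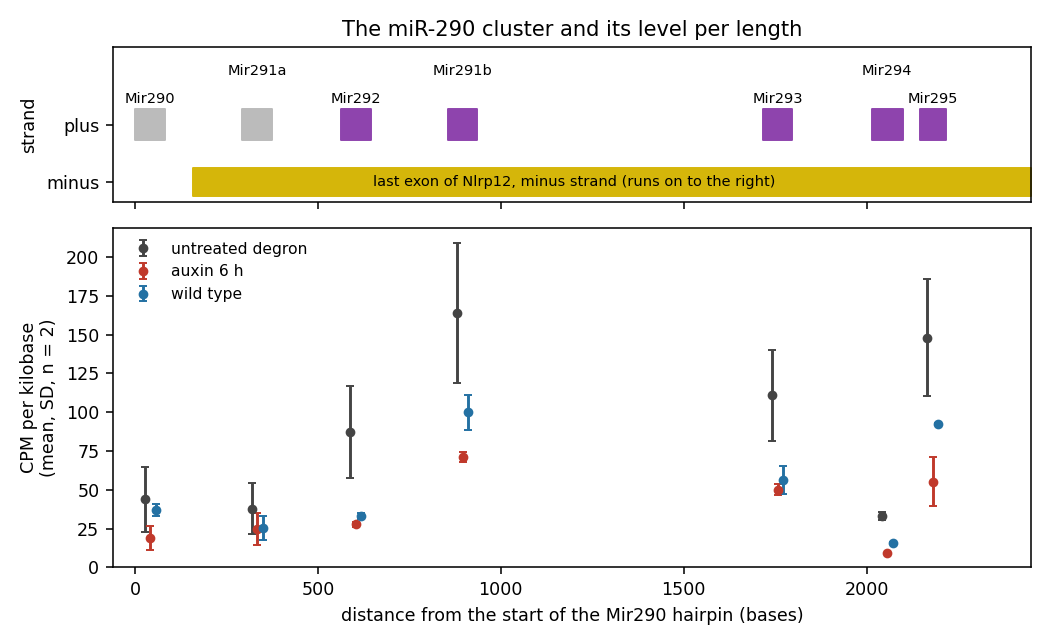
The upper panel places the 7 hairpins of the cluster (purple, the 5 members) and the antisense last exon of Nlrp12 by distance in bases from the start of Mir290, and the lower panel gives the CPM per kilobase at each hairpin as the mean ± SD of 2 libraries. In every group the level is higher at Mir291b than at Mir290, is lowest at Mir294 among the members and is higher again at Mir295, which begins 48 bases further on.

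Among the 652 genes with a hairpin symbol, Mir291b ranked 2 by its mean count over the 6 libraries (129 counts), Mir295 ranked 3 (99.5), Mir293 ranked 4 (85.0) and Mir292 ranked 5 (59.2). The gene at rank 1 was Mir5125, with 198 counts, and Mir294 was at rank 10 with 23.5. The order differed by group: after auxin Mir1968, with 61 and 50 counts, was above Mir292, and in wild-type cells Mir1199, with 80 and 95 counts, was above Mir293. The 5 genes took 48.9% and 45.6% of all hairpin-gene counts in the untreated libraries, 27.7% and 27.1% after auxin, and 34.5% and 30.9% in wild-type cells. With Mir290 and Mir291a added, the cluster took 57.6% and 51.7%, 33.7% and 33.0%, and 40.8% and 39.3% in the same order.

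The identity of these reads was examined through the sequence of the hairpins. None of the 30-base stretches of any of the 5 hairpins occurred in the transcripts of a gene elsewhere or in another member, and all of them occurred on the opposite strand of the Nlrp12 transcript. Whether the counting used strand is not given in the sources used here, and without strand the reads of a gene and its antisense partner cannot be told apart. Nlrp12 itself had 7 and 4 counts in untreated, 14 and 9 in auxin-treated, and 5 and 6 in wild-type libraries, too few to be tested.

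The first comparison asked which RNAs changed when Pol II was depleted for 6 h. In edgeR's quasi-likelihood fit of the auxin-treated against the untreated libraries, all 5 members passed the filter on low counts, with 12 counts as the smallest value. The log2 fold change was -1.83 (SE 0.33) for Mir294, -1.62 (SE 0.27) for Mir292, -1.40 (SE 0.24) for Mir295, -1.18 (SE 0.20) for Mir291b and -1.13 (SE 0.22) for Mir293. Their median was -1.40, beside a median of -0.0004 over all 16128 genes tested. TMM scaling places the bulk of genes near 0, so that median cannot show whether mRNA as a whole fell. Since these values chose the members, they describe the choice: 5 of 5 were called lower at an adjusted p of 0.05, where 1.64% of all genes tested were (DESeq2 left out Mir294), and 5 of 5 had both auxin-treated libraries below both untreated ones, where 24.8% of genes did. A log2 fold change under -1 was found for 0.242% of genes tested, and for each member.

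Just outside the choice, Mir290 had 70 and 35 counts in untreated, 18 and 31 in auxin-treated, and 40 and 47 in wild-type libraries, with a log2 fold change after auxin of -1.20 (SE 0.37). Mir291a had 58 and 31, 42 and 22, and 23 and 36 counts, with a log2 fold change of -0.58 (SE 0.36). Their auxin-treated libraries lay below the untreated ones for Mir290 and overlapped them for Mir291a. Neither was called (edgeR adjusted p = 0.0892 for Mir290 and 0.402 for Mir291a). However, 1 was called lower in the fit of all 3 groups and 1 with replicate number as a block. The calls also changed without the second untreated library. Both hairpins had the larger standard errors, and the interval of 1 SE around the value of Mir290 overlapped that of each member.

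The size of the auxin difference depended on the first untreated library. Without it the log2 ratio of the summed level went from -1.33 to -1.03, and the single genes ranged from -1.75 for Mir294 to -0.83 for Mir293. The direction was negative for every member under each alternative run, over a range of -1.93 to -0.83. These runs reuse the counts that chose the members, and the groups did not overlap, so the constant sign is no independent check. Markers moved beside the cluster. Of the 8 mESC markers, 4 fell (Sox2, Nanog, Zfp42 and Esrrb), where 1.64% of genes tested fell. Among fibroblast markers 1, the collagen gene Col1a2, rose by 0.36 (edgeR, adjusted p = 0.0224), where 2.56% rose. DESeq2 also called 4 mESC markers lower, but Esrrb was not among them (adjusted p = 0.173). It did not call Col1a2 (adjusted p = 0.0877), and neither did edgeR without the second auxin-treated library. The part of these markers in the values of the cluster was not tested.

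**Figure D3:**
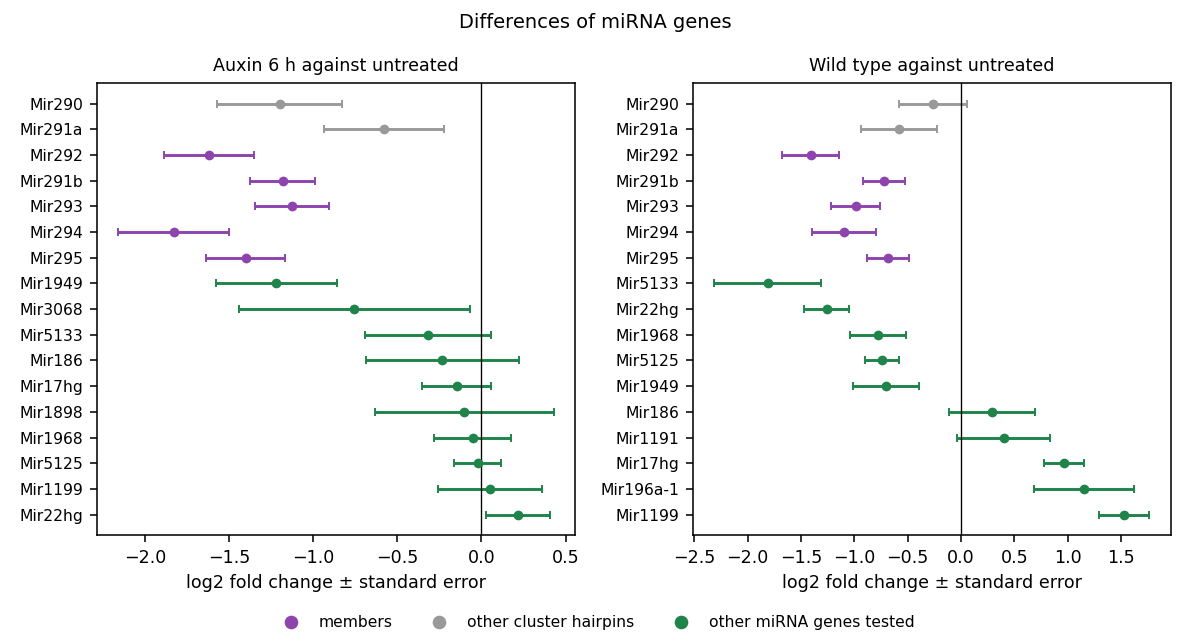
Points are log2 fold changes and bars ± 1 standard error from the edgeR fit, for auxin-treated (left) and wild-type (right) against untreated libraries, with the members in purple, the other cluster hairpins in grey and other tested miRNA genes in green, leaving out those with at most 3 counts in each untreated library. On the left the members lie between -1.83 and -1.13. Mir1949 at -1.22 is the one green point below -1, and Mir290, in grey, is at -1.20.

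The other miRNA genes of the table were fitted in the same way. Of the 648, 10 had enough counts to be tested, and 0 passed at an adjusted p of 0.05 by edgeR or by DESeq2, with 1 at an unadjusted p under 0.05. Without the second untreated library, 1 was called lower. Their median log2 fold change was -0.12. Mir5125, the hairpin gene with the most counts, had 254 and 195 counts in untreated and 239 and 236 in auxin-treated libraries, at -0.02 on the log2 scale (SE 0.14), and lies inside an intron of Srrm2, a splicing factor gene. Mir17hg, the host gene of the oncogenic miR-17 cluster, had 217 and 129 against 176 and 160 counts, at -0.15 (SE 0.20). The lowest was Mir1949, with 30 and 31 counts in untreated, 18 and 10 in auxin-treated and 19 and 18 in wild-type libraries, and a log2 fold change of -1.22 (SE 0.36, edgeR adjusted p = 0.0762). Its identifier is annotated as a small nucleolar RNA that overlaps a miRNA of the same name, so the gene behind these counts is uncertain.

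Genes that act on the cluster moved in part. Of the 6 transcription factors that occupy its promoter, 2 fell after auxin, beside 1.64% of all genes tested. Sox2, a partner of OCT4 in the core pluripotency circuit, had 5390 and 6474 counts in untreated and 3603 and 3815 in auxin-treated libraries, and its log2 fold change was -0.78 (SE 0.09, edgeR adjusted p = 0.000482). Nanog, a homeobox factor of the same circuit, had 6332 and 6531 against 4760 and 4500 counts, with -0.58 (SE 0.07, edgeR adjusted p = 0.00092). The other 4 did not pass, although 1 was called higher when the first or the second untreated library was left out: Pou5f1, which encodes OCT4, was at 0.08 (SE 0.09, edgeR adjusted p = 0.689), Tcf7l1, the TCF3 repressor of Wnt targets, at -0.02, and the growth regulators Myc and Mycn at 0.34 and 0.15. For Sox2 and Nanog both auxin-treated libraries lay below both untreated ones, as for 24.8% of genes tested. Their fall was smaller on the log2 scale than the difference of any member, but the members had been chosen as lower after auxin.

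Of the 22 tested genes that process, load or silence with miRNAs, 0 passed after auxin by edgeR or by DESeq2, with 2 at an unadjusted p under 0.05. Their log2 fold changes lay between -0.20 for Tnrc6c, a silencing scaffold, and 0.12 for Zcchc11, a terminal uridyl transferase. Drosha had 2029 and 2211 counts in untreated and 2409 and 2463 in auxin-treated libraries, at 0.10 (SE 0.07), Dgcr8 was at -0.11 (SE 0.08) and Dicer1 at -0.03 (SE 0.07). Without the first untreated library, 1 of the 22 was called higher and 3 lower.

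Of the 13 mRNAs described as silenced by the family, 1 fell and 0 rose after auxin, beside 1.64% and 2.56% of all genes tested, and 6 had an unadjusted p under 0.05, as had 3245 of the 16128 genes tested. Which of the 13 were called changed when either untreated library was left out, which leaves 1 library in that group. Casp2, an apoptotic protease, had 422 and 417 counts in untreated and 350 and 296 in auxin-treated libraries, at -0.48 on the log2 scale (SE 0.10, edgeR adjusted p = 0.0214). DESeq2 did not call it (adjusted p = 0.118), and neither did edgeR without the second auxin-treated library (adjusted p = 0.224). Lats2, a kinase of the Hippo pathway, was at 0.40 (SE 0.13, edgeR adjusted p = 0.101), and without the first untreated library at 0.67. Cdkn1a, the inhibitor of cyclin-dependent kinases p21, was at 0.24 (SE 0.09, edgeR adjusted p = 0.138), and without that library at 0.39. Rbl2, a retinoblastoma-like repressor of G1 exit, was at 0.03 (SE 0.12).

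The genes beside the cluster on chromosome 7 did not pass after auxin: 0 of 16 tested by edgeR or DESeq2, with 5 at an unadjusted p under 0.05 and a median log2 fold change of 0.13. Their values ran from -0.12 for Cnot3, a subunit of the CCR4-NOT deadenylase, to 0.50 (SE 0.21) for Cacng8, a regulator of AMPA receptors. Myadm, a membrane protein gene, was at -0.04 (SE 0.08), with 2231 and 1902 against 2154 and 2164 counts. Without the first untreated library, 3 neighbours were called higher and 1 lower.

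The second comparison set wild-type V6.5 against the tagged, untreated line, without auxin in either. Untreated cells also carried induced OsTIR1, had been cloned under drug selection and had received doxycycline. It used the same untreated libraries that chose the members, so it is not independent of that choice. The log2 fold change of wild-type over untreated cells was -1.41 (SE 0.27) for Mir292, -1.10 (SE 0.30) for Mir294, -0.99 (SE 0.23) for Mir293, -0.72 (SE 0.20) for Mir291b and -0.69 (SE 0.20) for Mir295. The median was -0.99, beside -0.01 over all 15778 genes tested, which TMM again places near 0. All 5 were called lower, where 30.7% of genes tested were (DESeq2 left out Mir294), and all 5 had both wild-type libraries below both untreated ones, where 41% of genes did. A log2 fold change under -1 was found for 11.4% of genes tested, and for Mir292 and Mir294. Mir290 and Mir291a were at -0.26 (SE 0.32) and -0.58 (SE 0.35), and their wild-type libraries overlapped the untreated ones. Neither was called (edgeR adjusted p = 0.502 and 0.174), although this changed in 1 run with a single library left out.

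This difference also depended on the first untreated library. Without it the log2 ratio of the summed level went from -0.89 to -0.59, and those of Mir291b and Mir295 to -0.41 and -0.40. The values of the 5 genes stayed negative under each alternative run, between -1.72 and -0.40. With both wild-type libraries below both untreated ones for each member, this sign is no independent check either. In wild-type cells 5 of the 8 mESC markers were higher than in untreated cells (Sox2, Nanog, Tdgf1, Dppa5a and Utf1) and 1 lower (Zfp42), and 3 fibroblast markers were lower (Col1a2, Thy1 and Pdgfrb) and 1 higher (Postn). DESeq2 did not call Postn (adjusted p = 0.0603), edgeR lost Postn without the second untreated or the second wild-type library and Zfp42 with either wild-type library left out, and without the first untreated library it called 3 mESC markers lower. The part of these markers in the values of the cluster was not tested. The wild-type libraries were deposited in a table of their own. The tag, OsTIR1, cloning, a possible difference in doxycycline and the table therefore cannot be told apart.

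Of the shares that single genes took of the cluster counts, that of Mir292 was lower in all auxin-treated and wild-type libraries than in both untreated ones. Mir292 made up 17.8% and 15.9% of the counts of the 5 genes in the untreated libraries, 13.7% and 14.0% after auxin, and 11.7% and 12.1% in wild-type cells. The 95% Wilson interval ran from 15.1% to 20.7% in the first untreated and from 8.71% to 15.5% in the first wild-type library, so the ends met. Mir291b held 31.0% and 30.6% in untreated, 31.4% and 37.2% in auxin-treated, and 35.4% and 33.9% in wild-type libraries. Mir294 held 5.87% and 7.66%, 4.33% and 4.96%, and 5.56% and 5.86% in the same order. For neither gene were the groups clearly apart. The interval of Mir291b was 26.2% to 37.1% in the first auxin-treated and 27.8% to 34.5% in the first untreated library. That of Mir294 was 3.74% to 9.08% in the second wild-type and 4.37% to 7.84% in the first untreated library. The shares of Mir295 in the auxin-treated libraries, 26.4% and 19.4%, had overlapping intervals.

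**Figure D4:**
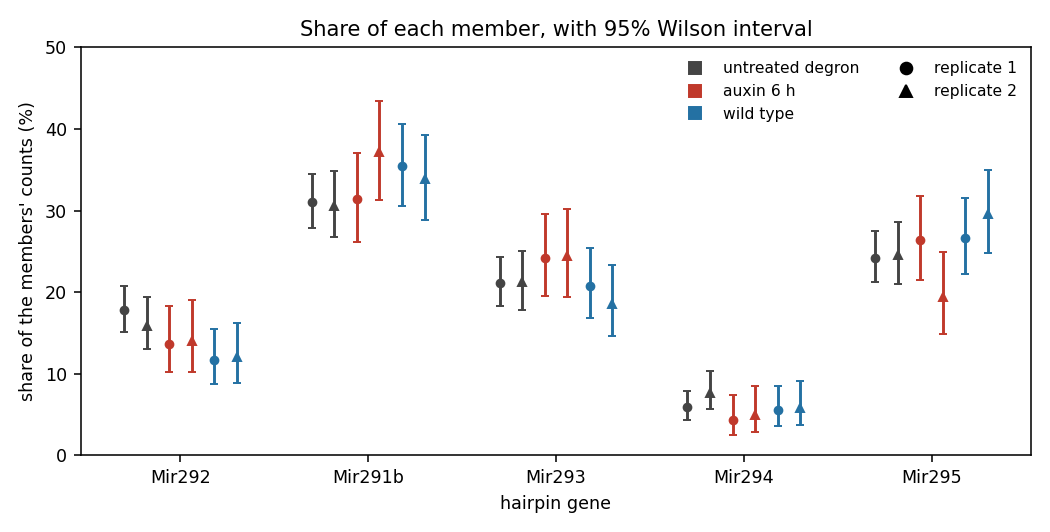
Each point is the percent of the counts of the 5 members that 1 gene took in 1 library, with its 95% Wilson interval, by group (colour) and replicate (shape). Mir291b is the largest share and Mir294 the smallest in all 6 libraries, and most intervals of a gene overlap between groups.

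Of all genes tested between the lines, 60.6% were called in either direction (30.7% lower and 29.9% higher), against which the counts of each list stand. Of the 11 other miRNA genes tested, 3 were higher and 4 lower in wild-type cells. Mir1199 had 33 and 28 counts in untreated and 80 and 95 in wild-type libraries, a log2 fold change of 1.53 (SE 0.24, edgeR adjusted p = 0.000187). Mir17hg was higher by 0.96 (SE 0.19, edgeR adjusted p = 0.000941), with 316 and 354 counts in wild-type cells. Mir1199 lies in an exon of another gene on the same strand, so its reads may be shared. The gene listed as Mir142, which is annotated on the strand opposite to the hairpin of blood cells, had 0 and 2 counts in untreated and 11 and 13 in wild-type libraries. Lower were Mir5133, Mir22hg, Mir1968 and Mir5125, with log2 fold changes from -1.81 (SE 0.50) for Mir5133 to -0.74 (SE 0.16) for Mir5125. DESeq2 did not call Mir5133 (adjusted p = 0.0925) or Mir1968 (adjusted p = 0.163), and edgeR called 2 lower without the first untreated or the first wild-type library.

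Of the 22 genes of miRNA processing and silencing, 10 were higher and 5 lower in wild-type cells. Drosha was higher by 0.87 (SE 0.06, edgeR adjusted p = 5e-07), with 3762 and 3902 counts, and so were the Argonaute genes Ago1, Ago2 and Ago3, which hold the miRNA, by 0.84, 0.62 and 0.41. Dicer1 (0.23), the DROSHA-associated Srrt (0.42), the silencing scaffolds Tnrc6a (0.48) and Tnrc6b (0.20), the let-7 inhibitor Lin28a (0.24) and the uridyl transferase Zcchc6 (0.33) were the other higher ones. The lower ones were Tarbp2, a partner of DICER1 (-0.52), Lin28b (-0.39), the exonuclease gene Dis3l2 (-0.38), the helicase gene Ddx17 (-0.34) and Dgcr8 (-0.26). DESeq2 did not call Dgcr8 (adjusted p = 0.0827) or Tnrc6b (adjusted p = 0.0615), and without the first wild-type library edgeR called 3 lower.

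Of the 6 factors at the promoter, 3 were higher and 1 lower in wild-type cells. Mycn had 333 and 364 counts in untreated, 371 and 460 in auxin-treated, and 2910 and 2852 in wild-type libraries, a log2 fold change of 3.06 (SE 0.07, edgeR adjusted p = 1.72e-10). Sox2 was higher by 0.86 (SE 0.08, edgeR adjusted p = 2.87e-06) and Nanog by 0.46 (SE 0.06, edgeR adjusted p = 3.74e-05). Wild-type cells had more Sox2 and Nanog mRNA and fewer counts at the 5 hairpins than untreated cells. Auxin-treated cells had less Sox2 and Nanog mRNA and fewer of these counts, while Mycn was at 0.15 after auxin. The part of these factors in the values of the cluster was not tested. Tcf7l1 was lower by edgeR at -0.20 (SE 0.07, adjusted p = 0.0244) and not by DESeq2 (adjusted p = 0.175) and not with either wild-type library left out, 2 factors were lower without the first untreated library, and Pou5f1 was at 0.02 (SE 0.08, edgeR adjusted p = 0.835).

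Of the 13 reported targets, 6 were higher and 2 lower in wild-type cells. Lats2 had 522 and 372 counts in untreated, 667 and 604 in auxin-treated, and 188 and 189 in wild-type libraries, and was lower in wild-type cells by a log2 fold change of -1.24 (SE 0.15, edgeR adjusted p = 3.24e-05). Irf2, an interferon regulatory factor, was at -1.63 (SE 0.30, edgeR adjusted p = 0.000721), with 24 and 45 counts in wild-type against 130 and 85 in untreated libraries. The higher ones were Ei24 (0.89), Arid4b (0.60), Fbxl5 (0.55), the kinase Wee1 (0.43), Rbl2 (0.32) and the methyltransferase gene Ash1l (0.27). DESeq2 did not call Rbl2 (adjusted p = 0.176) or Ash1l (adjusted p = 0.0624), and without the second untreated library edgeR called 4 lower.

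Of the 16 tested neighbours, 4 were higher and 5 lower in wild-type cells. The lower ones were Tarm1 (-1.06), Myadm (-0.54), AU018091 (-0.35), Rps9 (-0.34) and Cacng7 (-0.22), and the higher ones Cacng8 (0.68), Cacng6 (0.68), Leng1 (0.51) and Ndufa3 (0.33), of which DESeq2 did not call Cacng8 (adjusted p = 0.0671), Leng1 (adjusted p = 0.0915) or Cacng7 (adjusted p = 0.141). With single libraries left out, 2 were called higher without the second untreated or the first wild-type library, and 3 lower with either wild-type library left out. Tarm1, a receptor gene of myeloid cells, had 192 and 206 counts in untreated, 237 and 243 in auxin-treated, and 104 and 85 in wild-type libraries. It was lower in wild-type cells, as the members were, and its auxin-treated libraries lay above the untreated ones, as theirs did not.

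The likeness of other genes to the cluster was measured as the Euclidean distance between their centred log2 CPM profile over the 6 libraries and that of the summed counts of the members. The members, which are part of that sum, lay at 0.26 (Mir291b) to 0.62 (Mir294) from it. Of 14164 genes outside the locus with at least 10 counts in every library, the nearest were 1700003E16Rik (0.55), Slc16a4 (0.60), Gm17275 (0.64), Mir1949 (0.64) and Gm9929 (0.65), of which the first and second lay nearer than Mir294. The nearest, 1700003E16Rik, had 30 and 29 counts in untreated, 19 and 13 in auxin-treated, and 16 and 17 in wild-type libraries. Ranked by Pearson's r instead, 5 other genes came first, led by Ndufaf4, a complex I assembly factor gene, so the likeness depended on the measure, and all points share the same 6 libraries.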

How the data were processed

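PolyA RNA-Seq was deposited for 6 mESC libraries in 3 groups of 2, taken from the sample labels. The authors aligned paired reads to mm10. The submitters' processing notes name HISAT2 2.1.0, Salmon, HTSeq and DESeq2, and the annotation release and strand setting are not given in the sources used here. The authors deposited raw counts per gene, not normalized, in a table of the degron line and another of the wild type, which were joined by gene identifier. Columns of the authors' own comparison (means, fold changes and p-values) and 2 columns that match no sample were not used.

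In R 4.3.3, edgeR 4.0.16 was fitted to the genes that passed filterByExpr at a minimum count of 10 (TMM, glmQLFit and glmQLFTest, prior count 0.125) on the 4 libraries of each comparison, with Benjamini-Hochberg adjustment over all genes tested and a call at an adjusted p of 0.05. Each SE was derived as the absolute log2 fold change divided by the square root of the quasi-likelihood F statistic. Levels are CPM after TMM over all 6 libraries, divided by hairpin length in kilobases where genes are compared. Library totals were 14094022 to 15358714 counts. The fit was tested on simulated data. Alternatives were DESeq2 1.42.0, its size factors, library totals, a minimum of 10 counts per library, omission of the filter, a replicate block, 1 fit of all 3 groups, a prior count of 5, Pearson's r for likeness and each library left out.

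The members and gene lists were chosen with earlier results of these data known. Named were the members, their locus, each called gene of the lists, tested miRNA genes and the 5 genes nearest in profile. Sequences came from RefSeq (GRCm38.p6) and positions from GENCODE vM21.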

Additional observations from a re-analysis of the deposited data

How the results depend on the processing

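The direction of all 5 members held in both comparisons under every alternative run. Their untreated libraries lay above all the others, in the counts that chose them, so this is no independent check. The number of genes called after auxin, 413 higher and 264 lower, moved most. DESeq2 called 128 and 108, no filter 43 and 12, at least 10 counts in every library 246 higher, and the fit of all 3 groups 567 and 668, which turned the balance to lower. With each library left out in turn, where the lone sample is assumed to vary like the others, the calls ran from 142 to 1394 higher and from 35 to 1330 lower, with 1394 and 1330 without the first untreated library, 506 lower without the second, 149 and 35 without the first auxin-treated library and 142 and 37 without the second. The log2 ratio of the summed level then ran from -1.58 to -1.03 after auxin and from -1.14 to -0.59 in wild-type cells. The causes were not tested. Wild-type calls, 4713 higher and 4842 lower, stayed within 1.5 times, and DESeq2 turned their balance with 3575 and 3511. Replicate numbers did not pair the libraries (correlation of deviations 0.06 and -0.03 over 14171 genes), and the replicate block called 1081 higher and 849 lower after auxin. With 12 to 222 counts per member and library, counting error limits Mir294 most.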
